A study of Arabidopsis thaliana with 12 samples.

Results

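The genes described here are 82 nuclear genes of Arabidopsis thaliana seedlings that were read more often in the mutant pot1b than in the wild type, both with the DNA-breaking drug Zeocin and under a mock treatment. They were found among 32548 nuclear genes (chromosomes 1 to 5) counted by RNA sequencing, of which 19596 were tested, all 82 among them. They were selected on their measured values. Counts were scaled to CPM, counts per 1000000 nuclear counts of the library (a level that is not corrected for gene length and so is not compared between genes). A gene was taken where its mean was at least 3 CPM in both pot1b groups, where the ratio (pot1b + 0.5 CPM) / (WT + 0.5 CPM) was at least 1.8 in both treatments, and where in each treatment all 3 pot1b libraries lay above all 3 WT libraries. The iron uptake genes IRT1 and FRO2, the ribonuclease gene RNS1, the jasmonate synthesis gene AOC2 and the cold gene COR15A met the rule and were set aside by name. Another 2 genes passed the levels and ratios but had overlapping libraries.

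The 4 groups had 3 libraries each: pot1b with 20 µM Zeocin for 6 h (pot1b Zeocin), Col-0 wild type with the same Zeocin treatment (WT Zeocin), pot1b mock and WT mock. All were whole seedlings, 6 days old, grown on MS medium. The labels name no pot1b allele and do not say whether replicates came from separate cultures or plates, so the p-values cover the spread among these libraries alone, and part of it may be technical. In whole seedlings, fewer cells of a type and less RNA per cell cannot be told apart.

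POT1b belongs to a family of proteins known for binding telomeres, the ends of chromosomes, and the study's title ties it to the balance of reactive oxygen species (ROS). Zeocin, a member of the bleomycin drugs, cuts DNA. In plants, wounding, pathogens, drought and ROS act through partly shared routes, in which receptor kinases and calcium channels sense the stress, WRKY, MYB, ERF and bHLH transcription factors pass it on, and jasmonate, detoxifying enzymes and cell wall proteins are among the outputs. Genes of all these kinds are among the 82, but their share of all tested genes was not counted, so their presence is a description only.

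Libraries held 9607269 to 24587168 counts, of which 3961261 to 10490315 were nuclear and 53.01% to 58.45% came from chloroplast genes. At these depths 3 counts in a library were 0.286 to 0.757 CPM. POT1B itself had few counts: with Zeocin, 24, 8 and 56 in pot1b against 47, 60 and 100 in WT, and under mock, 29, 14 and 39 in pot1b against 79, 28 and 68 in WT. In CPM this was 3.99, 1.7 and 10.25 in pot1b Zeocin against 8.18, 8.2 and 13.16 in WT Zeocin, and 3.35, 2.52 and 6.53 in pot1b mock against 7.53, 7.07 and 7.65 in WT mock. The library labelled pot1b Zeocin replicate 3 thus lay within the range of WT Zeocin, so that the mutated gene does not check its label, while pot1b mock replicate 3 lay just below WT mock. Without both of these libraries the rule found 78 genes, 68 of them among the 82. The pair had no part in choosing these 78, but the WT libraries did, so the counts that follow are not independent of the choice. Of the 78, 76 were higher in pot1b Zeocin replicate 3 than in all 3 WT Zeocin libraries. In pot1b mock replicate 3, 77 were higher than in all 3 WT mock libraries. The matching shares over all genes were not counted, so these counts do not check the labels either. Another library, WT Zeocin replicate 1, stood apart in its TMM scaling factor of 1.15, where the others had 0.931 to 1.03, and had the lowest chloroplast share. Without it the rule found 90 genes, 74 of them among the 82.

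The ratios that chose the genes were mostly modest. The median ratio was 2.19 with Zeocin and 2.25 under mock, 40 genes had a ratio of at least 2 in both treatments, and 4 reached at least 3 in both. The ratio was larger with Zeocin for 42 genes and larger under mock for 40. Group means in pot1b spanned 3.47 to 209 CPM with Zeocin and 3.31 to 273 CPM under mock. These ratios are a description of the choice, and no test was made of them. Of all tested genes 11.1% were called between genotypes with Zeocin and 13.1% under mock (edgeR adjusted p under 0.05). All 82 were called in both by edgeR, a result that the rule favours. DESeq2 called fewer with Zeocin, among them 4 of 8 uncharacterised genes, 7 of 9 transcription genes and 9 of 11 receptor, kinase, channel and calcium genes. Under mock it called 7 of 8 small stress-type genes and all genes of the other roles.

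**Figure D1:**
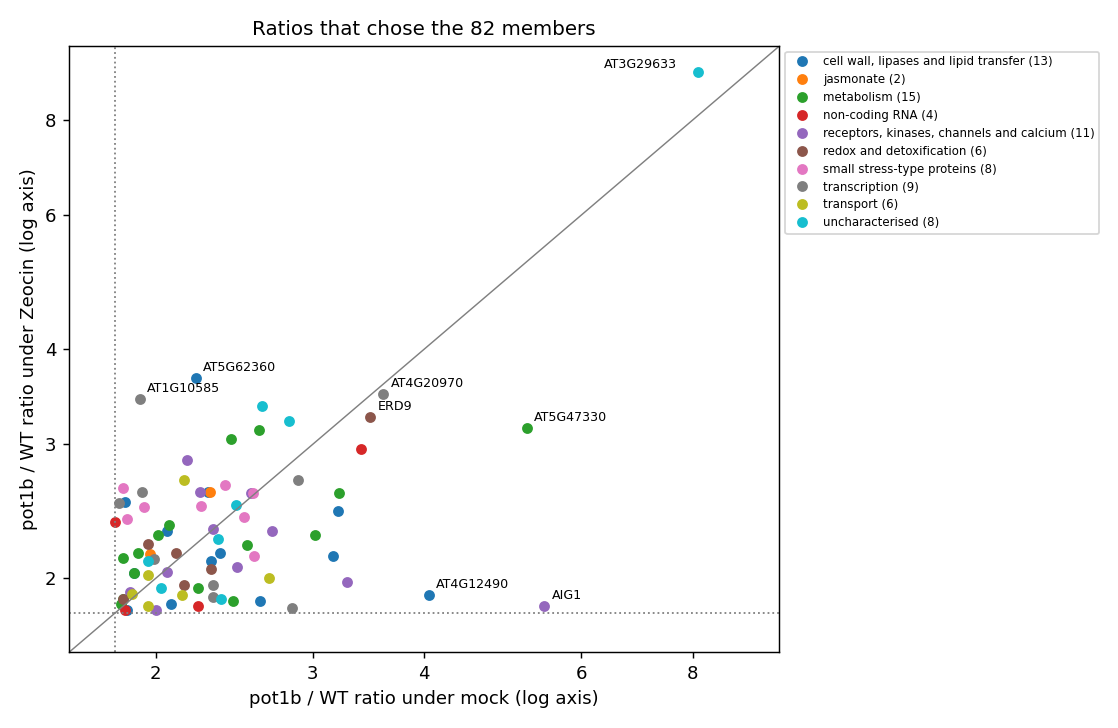
The pot1b / WT ratio of each of the 82 genes under mock (x axis, log scale) and with Zeocin (y axis, log scale), coloured by role, with the number of genes in brackets; dotted lines mark the minimum of 1.8 and the solid line equal ratios. Most points lie between 1.8 and 3 on both axes, while AT3G29633 stands apart at 8.11 under mock and 9.25 with Zeocin, and AIG1, AT5G47330 and AT4G12490 lie to the right of the line.

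Closest to the limit inside it were AT4G06665 with a smaller ratio of 1.803, AT3G07835 with 1.816 and AGP15 with 1.817. Just outside it were AT3G10930 with 1.791, the raffinose synthesis gene SIP1 with 1.79 and AT5G55400 with 1.778. No step in the values separates the genes on the 2 sides of the limit.

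The rule set no condition on the response to Zeocin within each genotype. That response is still the difference of group means on which the rule set limits, so that its values in the 82 genes are not independent of their choice. The 2 comparisons, Zeocin against mock in pot1b and Zeocin against mock in WT, share no library. In pot1b, 24 of the 82 genes were called, 29.3%, against 6.7% of all tested genes. Of these 9 rose and 15 fell, where 3.7% of all genes rose and 3.0% fell. In WT, 10 of the 82 were called, 12.2%, against 5.99% of all tested genes. Of these 5 rose and 5 fell, where 3.34% of all genes rose and 2.65% fell. These shares stand beside the background and were not tested. Among the 16486 genes with at least 3 CPM in both pot1b groups the shares called were 6.72% in pot1b and 6.08% in WT. The 2 counts were not tested against each other. The median log2 fold change of the 82 was -0.08 in pot1b and -0.04 in WT, close to the 0 of all tested genes.

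In all, 54 of the 82 genes were called in neither genotype, 3 rose in both, 3 fell in both and 0 were called in opposite directions. Changes of at least 2-fold were reached by 4 called genes in pot1b and 2 in WT. The shares of all tested genes with such joint calls or such large changes were not counted, so these numbers are a description only. The genes that rose in both were the calcium pump gene ACA13 (AT3G22910), the mitochondrial carrier gene UCP5 and EDA36. Those that fell in both were the jasmonate-regulated oxygenase gene JRG21, the glutathione transferase gene ERD9 and the pirin gene PRN. The counts depend on single libraries. Without WT Zeocin replicate 1 the count was 28 in pot1b and 9 in WT. In pot1b it was 14 without pot1b Zeocin replicate 1, and 13 without both pot1b replicate 3 libraries. In WT it was 6 without WT mock replicate 1, 4 without WT mock replicate 3 and 6 without WT Zeocin replicate 2. Calls that held whichever single library was left out numbered 13 of the 24 in pot1b and 3 of the 10 in WT, and for the others the highest adjusted p reached 0.19 in pot1b and 0.21 in WT.

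**Figure D2:**
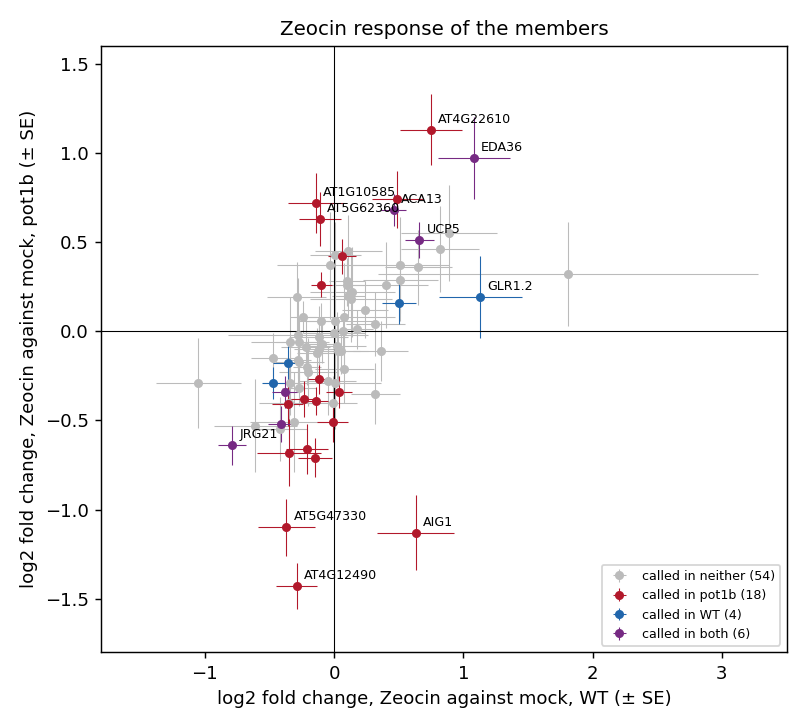
Log2 fold change of Zeocin against mock in WT (x axis) and in pot1b (y axis) for the 82 genes, with bars of 1 SE and colours for the genotype in which a gene was called. Most points lie near the centre, ACA13, UCP5 and EDA36 lie at the upper right and JRG21 at the lower left, and AT4G12490, AIG1 and AT5G47330 lie low, between -1.43 and -1.10 in pot1b; the grey point at the far right is AT3G29633, whose WT value rests on 1 count.

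Of the 9 genes for transcription factors and similar DNA-binding proteins, 1 rose and 1 fell with Zeocin in pot1b and 1 rose in WT. Beside this and the other role counts stand the 6.7% of all tested genes called in pot1b and the 5.99% called in WT. The role groups were drawn up with earlier results known, and their counts were not tested. AT4G20970, a basic helix-loop-helix (bHLH) protein gene, had 32.7, 33.7 and 37.9 CPM in pot1b Zeocin against 8.88, 9.56 and 10.4 CPM in WT Zeocin, and 43.5, 38.3 and 43.2 CPM in pot1b mock against 11.6, 11.4 and 10.7 CPM in WT mock. Its ratio was 3.49 with Zeocin and 3.6 under mock, the largest smaller ratio of any transcription factor gene here. AT1G22810, annotated as an integrase-type DNA-binding protein, a RefSeq wording for the AP2/ERF fold, had 4.16, 8.69 and 4.94 CPM in pot1b Zeocin against 1.92, 1.78 and 1.97 CPM in WT Zeocin, and 3.47, 4.49 and 5.19 CPM in pot1b mock against 1.24, 0.76 and 1.57 CPM in WT mock. In both genes the pot1b libraries form a band well clear of WT, and Zeocin moved neither past the threshold.

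A second bHLH gene, AT1G10585, had 14.5, 12.5 and 12.8 CPM in pot1b Zeocin and 4.35, 2.87 and 3.29 CPM in WT Zeocin. Under mock AT1G10585 had 8.67, 7.55 and 6.87 CPM in pot1b and 3.53, 4.29 and 3.49 CPM in WT. It rose with Zeocin in pot1b (log2 fold change 0.72, SE 0.17, edgeR adjusted p = 0.0071; the call was lost without pot1b Zeocin replicate 1, adjusted p = 0.059), while in WT its log2 fold change was -0.14 and was not called. The difference between the 2 responses was 0.85 (SE 0.27), given with no test because it is the difference of the 2 genotype contrasts that chose the genes. In pot1b the Zeocin libraries lie above the mock libraries without overlap, and in WT the 2 treatments overlap. The gene AT1G10580, which overlaps AT1G10585, had 2106 counts in all against 530, so that the level of AT1G10585 is uncertain.

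WRKY48 codes for a WRKY factor known as a negative regulator of basal defence. It had 40.4, 38.1 and 37.7 CPM in pot1b Zeocin against 23.7, 20.9 and 16.3 CPM in WT Zeocin, and 34.2, 31.1 and 34.3 CPM in pot1b mock against 12.2, 15.9 and 14.1 CPM in WT mock. In WT it rose with Zeocin (log2 fold change 0.50, SE 0.13, edgeR adjusted p = 0.023), and the call was lost without WT Zeocin replicate 1 or 2 or WT mock replicate 1 or 3, with an adjusted p of up to 0.2 without WT mock replicate 1. The pot1b value of WRKY48 was 0.16, SE 0.12, edgeR adjusted p = 0.53, and was not called. MYB15, a factor known for cold and lignin-linked defence responses, had 22.4, 22.7 and 20.9 CPM in the pot1b Zeocin libraries and 16.4, 9.97 and 8.95 CPM in the WT Zeocin libraries, with 31.8, 27.5 and 20.8 CPM in pot1b mock and 8.58, 9.85 and 8.77 CPM in WT mock. Its Zeocin response was called in neither genotype. The other members of this kind were AT1G64380 (AP2/ERF fold), the C2H2 zinc finger gene AT3G46080, the homeodomain-like gene AT5G01380 and SRS6 of the SHI family, with ratios of 1.96 to 2.6 with Zeocin and 1.82 to 2.32 under mock. SRS6 fell with Zeocin in pot1b (log2 fold change -0.39, SE 0.08, edgeR adjusted p = 0.0044). It lies over the chitinase gene EP3 on the other strand, as described further on.

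The RefSeq TAIR10.1 genome, whose name differs from the TAIR10 named for the counts, gave the 250 bases before the start of each gene, and no coordinate was converted between the builds. The windows of 3 genes are shown as examples because WRKY proteins are known to bind W-boxes, and these genes carry several. They are not the only ones: 11 members have at least 2 W-boxes, and the window of the transporter gene GTR1, not shown, holds 3. In the windows shown, capitals mark TTGACC or TTGACT, read on either strand, and no other motif is marked. The first is chr4:11214862-11215111 (+ strand) with 3 W-boxes, the second chr1:8075038-8075287 (- strand) with 3, and the third, of a small membrane protein gene described further on, holds 2 and lies at chr1:20967181-20967430 (- strand). No other annotated gene lies in any of these windows.
AT4G20970: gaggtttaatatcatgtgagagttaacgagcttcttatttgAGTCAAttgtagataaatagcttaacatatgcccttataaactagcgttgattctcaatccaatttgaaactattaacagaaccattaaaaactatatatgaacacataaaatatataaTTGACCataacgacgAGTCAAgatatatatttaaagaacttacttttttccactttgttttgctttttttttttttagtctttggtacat
AT1G22810: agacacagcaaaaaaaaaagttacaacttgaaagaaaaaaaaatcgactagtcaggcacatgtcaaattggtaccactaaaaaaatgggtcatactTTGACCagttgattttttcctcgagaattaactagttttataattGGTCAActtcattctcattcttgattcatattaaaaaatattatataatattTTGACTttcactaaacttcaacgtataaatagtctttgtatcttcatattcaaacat
AT1G56060: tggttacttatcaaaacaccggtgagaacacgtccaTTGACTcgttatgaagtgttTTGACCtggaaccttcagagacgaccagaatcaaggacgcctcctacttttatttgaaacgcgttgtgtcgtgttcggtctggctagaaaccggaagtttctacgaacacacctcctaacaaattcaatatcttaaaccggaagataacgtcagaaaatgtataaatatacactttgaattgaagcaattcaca

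Over all members, 32 of 82 windows (39.0%) held at least 1 W-box against 28.3% of the 19393 windows of tested genes, and 13.4% against 6.0% held at least 2. Other motifs were searched on both strands too. The TATA box TATAAA was in 57.3% of members' windows and 45.0% of all, the G-box CACGTG in 11.0% and 7.1%, and the as-1 type core TGACG in 13.4% and 19.3%. The palindrome known from SOG1, the plant factor of the DNA damage response, was in 12.2% and 9.0%. The telo-box AAACCCTA was in 2.4% and 3.6%, the phosphate motif GNATATNC in 6.1% and 5.4%, the heat shock element GAANNTTC in 7.3% and 9.6%, the DRE core GCCGAC in 3.7% and 2.9%, the evening element AAAATATCT in 2.4% and 2.4%, and the mitochondrial dysfunction motif in 0.0% and 0.5%. At least 2 matches were in 3.7% of members' windows and 0.5% of all for the SOG1 palindrome, which is 3 members, in 2.4% and 0.5% for the heat shock element, which is 2 members, in 2.4% and 1.0% for the G-box, in 4.9% and 3.5% for the as-1 type core, in 23.2% and 16.5% for the TATA box, and in 0.0% of members' windows for the other motifs. These are letters found in a window, W-box and as-1 matches may overlap, and no share was tested.

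The receptor, kinase, channel and calcium genes numbered 11, of which 1 rose and 1 fell with Zeocin in pot1b and 2 rose in WT. ACA13 (AT3G22910), which RefSeq lists under the synonym of an auto-inhibited calcium ATPase, had 74, 76.3 and 78.2 CPM in pot1b Zeocin against 32.9, 27.7 and 26.5 CPM in WT Zeocin, and 49.7, 44 and 42.7 CPM in pot1b mock against 19.9, 18.18 and 22 CPM in WT mock. It rose with Zeocin in pot1b (log2 fold change 0.68, SE 0.09, edgeR adjusted p = 2.4e-05) and in WT (log2 fold change 0.46, SE 0.10, edgeR adjusted p = 0.0073; the call was lost without WT mock replicate 1, adjusted p = 0.055). All 3 Zeocin libraries lie above all 3 mock libraries in each genotype.

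AIG1, a GTP-binding protein gene known from its induction by the bacterial effector AvrRpt2, behaved in another way. It had 6.65, 7.84 and 9.15 CPM in pot1b Zeocin against 6.27, 2.32 and 3.55 CPM in WT Zeocin, and 18.6, 15.8 and 14.7 CPM in pot1b mock against 1.81, 3.28 and 2.7 CPM in WT mock. It fell with Zeocin in pot1b (log2 fold change -1.13, SE 0.21, edgeR adjusted p = 0.0012). In WT its value was 0.63, SE 0.30, edgeR adjusted p = 0.28, which is not a call, and the difference between the 2 responses was -1.76 (SE 0.37), given with no test. With Zeocin the lowest pot1b library and the highest WT library are close together, whereas under mock they are far apart, and the ratio was 1.84 with Zeocin and 5.45 under mock.

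The glutamate receptor gene ATGLR1.2, of a family of ligand-gated cation channels, had 4.49, 6.57 and 5.68 CPM in pot1b Zeocin and 3.13, 2.19 and 2.37 CPM in WT Zeocin. Under mock the receptor gene had 4.51, 4.13 and 5.36 CPM in pot1b and 1.43, 1.01 and 0.79 CPM in WT. In WT it rose with Zeocin (log2 fold change 1.13, SE 0.32, edgeR adjusted p = 0.038), and the call was lost without WT Zeocin replicate 1, 2 or 3 or WT mock replicate 2 or 3, with an adjusted p of up to 0.21 without WT mock replicate 3. Its value in pot1b was 0.19, SE 0.23, edgeR adjusted p = 0.76, and WT Zeocin libraries lie above WT mock libraries at low levels. The others of this kind were called in neither genotype. They were the cysteine-rich receptor kinase gene CRK12, the receptor kinase gene RK3, the kinase gene MAPKKK15, the cyclic nucleotide-gated channel gene CNGC7, the annexin gene ANNAT4, the EF-hand gene AT3G01830, the ARM repeat gene AT3G02840 and the TRAF-like gene AT3G28220. ANNAT4, a calcium-dependent membrane-binding protein gene, had 10.3, 8.26 and 11.4 CPM in pot1b Zeocin against 2.09, 4.24 and 3.16 CPM in WT Zeocin, and 7.63, 6.29 and 7.04 CPM in pot1b mock against 2.86, 3.28 and 2.7 CPM in WT mock. AT3G02840 had 5.82, 7.2 and 5.68 CPM in pot1b Zeocin and 2.26, 2.32 and 1.71 CPM in WT Zeocin. Under mock AT3G02840 had 6.59, 5.57 and 4.69 CPM in pot1b and 1.81, 1.26 and 2.59 CPM in WT. In both the pot1b libraries lie clear of WT, and for CNGC7 the overlapping gene PnsB1 had 2596 counts in all against 183 for CNGC7 itself, so that its level is uncertain.

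Jasmonate is a lipid-derived hormone of wounding and defence. AOC3 codes for an allene oxide cyclase, an enzyme of jasmonate synthesis, and had 62.7, 88.8 and 62.2 CPM in pot1b Zeocin against 31, 26.5 and 23.7 CPM in WT Zeocin, and 57, 60.8 and 52.9 CPM in pot1b mock against 22.8, 26.5 and 24.2 CPM in WT mock. JRG21, known also as a jasmonate-induced oxygenase that inactivates the hormone by hydroxylation, had 49.5, 55.7 and 46.3 CPM in the pot1b Zeocin libraries and 27.7, 20.4 and 21.7 CPM in the WT Zeocin libraries, with 69.9, 80.2 and 76.7 CPM in pot1b mock and 42.6, 34.3 and 37.2 CPM in WT mock. JRG21 fell with Zeocin in pot1b (log2 fold change -0.64, SE 0.11, edgeR adjusted p = 0.00022) and in WT (log2 fold change -0.79, SE 0.11, edgeR adjusted p = 5.3e-05), and no left-out library ended either call. The Zeocin libraries of JRG21 lie below the mock libraries in each genotype, and AOC3 was called in neither.

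The wider jasmonate pathway held 20 listed genes, 18 of them tested. Of these, 12 were higher in pot1b with Zeocin and 11 under mock, and 0 were lower in either by edgeR, DESeq2 or limma-voom (2 under mock at an unadjusted p under 0.05), where 6.55% and 7.25% of all tested genes were called higher. The median log2 fold change of the 18 was 0.64 in both treatments against 0.01 for all genes. The list holds AOC3 and the set-aside AOC2, whose values chose them. AOS, which makes the substrate of the allene oxide cyclases, averaged 240.0 ± 24.7 CPM in pot1b Zeocin against 119 ± 10.8 CPM in WT Zeocin, and 218 ± 17.3 CPM in pot1b mock against 128 ± 7.93 CPM in WT mock (SD, n = 3). The lipoxygenase gene LOX3, at the start of the pathway, averaged 49.2 ± 4.31 CPM in pot1b Zeocin against 23.5 ± 4.17 CPM in WT Zeocin, and 45.4 ± 4.12 CPM in pot1b mock against 25.4 ± 0.2 CPM in WT mock (SD, n = 3). JAZ10, a repressor of jasmonate signalling that the hormone itself induces, averaged 26.1 ± 3.23 CPM in pot1b Zeocin against 16.2 ± 2.29 CPM in WT Zeocin, and 26.4 ± 2.04 CPM in pot1b mock against 14.3 ± 1.76 CPM in WT mock (SD, n = 3). These 3 rose in pot1b in both treatments, while the master transcription factor gene MYC2 and the cyclase gene AOC4 were called in neither, and OPR3 was called with Zeocin only, a difference between treatments that was not tested.

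Redox and detoxification genes numbered 6, of which 1 rose and 2 fell with Zeocin in pot1b, and 1 rose and 3 fell in WT. ERD9 (GSTU17), a glutathione transferase of the tau class that joins glutathione to reactive compounds, had 201, 177 and 216 CPM in pot1b Zeocin against 51.9, 60.9 and 68.4 CPM in WT Zeocin, and 274, 259 and 286 CPM in pot1b mock against 70.4, 78.3 and 85.1 CPM in WT mock. With ratios of 3.26 with Zeocin and 3.48 under mock it is one of the 4 genes at 3 or more in both treatments. It fell with Zeocin in pot1b (log2 fold change -0.52, SE 0.10, edgeR adjusted p = 0.0013) and in WT (log2 fold change -0.41, SE 0.10, edgeR adjusted p = 0.019; the call was lost without WT mock replicate 2 or 3, with an adjusted p of up to 0.13 without WT mock replicate 3), and no pot1b library comes near WT.

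UCP5, a carrier of dicarboxylates in the inner mitochondrial membrane, had 48.7, 47.3 and 49.1 CPM in pot1b Zeocin and 27, 23.1 and 23 CPM in WT Zeocin. Under mock UCP5 had 34, 30.7 and 32.7 CPM in pot1b and 15.7, 14.4 and 14.3 CPM in WT. It rose with Zeocin in pot1b (log2 fold change 0.51, SE 0.10, edgeR adjusted p = 0.00084) and in WT (log2 fold change 0.66, SE 0.11, edgeR adjusted p = 0.00019), calls that no single library ended. PRN, a pirin with a cupin fold, had 97.7, 97.9 and 88.8 CPM in pot1b Zeocin against 52.6, 38 and 40.3 CPM in WT Zeocin, and 128, 103 and 115 CPM in pot1b mock against 57.6, 53 and 52.3 CPM in WT mock. It fell in pot1b (log2 fold change -0.34, SE 0.09, edgeR adjusted p = 0.03), and the call was lost without pot1b Zeocin replicate 1, 2 or 3 or pot1b mock replicate 1 or 3, with an adjusted p of up to 0.19 without pot1b mock replicate 1. It fell in WT too (log2 fold change -0.38, SE 0.10, edgeR adjusted p = 0.023), and the call was lost without WT Zeocin replicate 2 or 3 or WT mock replicate 1, 2 or 3, with an adjusted p of up to 0.14 without WT mock replicate 1. Both changes are small beside the gap between the genotypes. ALDH2B7, a mitochondrial aldehyde dehydrogenase gene, fell in WT (log2 fold change -0.36, SE 0.11, edgeR adjusted p = 0.047), and the call was lost without any one library other than pot1b Zeocin replicate 3, WT Zeocin replicate 3 or WT mock replicate 2, with an adjusted p of up to 0.19 without WT mock replicate 1. The pot1b value of ALDH2B7 was -0.18, SE 0.10, edgeR adjusted p = 0.36, and was not called. GSTU8, another tau glutathione transferase gene, and the cupin gene AT3G04300 were called in neither genotype and had ratios of 1.84 to 2.31.

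Of the 15 genes of metabolism, 1 rose and 3 fell with Zeocin in pot1b, and 1 rose and 1 fell in WT. AT5G47330, annotated as an alpha/beta-hydrolase, had 13.1, 10.4 and 17.2 CPM in pot1b Zeocin against 3.31, 5.06 and 3.55 CPM in WT Zeocin, and 29.1, 28.9 and 26 CPM in pot1b mock against 5.62, 4.8 and 4.5 CPM in WT mock. It fell with Zeocin in pot1b (log2 fold change -1.10, SE 0.16, edgeR adjusted p = 5.3e-05), and its WT value was -0.37, SE 0.22, edgeR adjusted p = 0.41. Even so the lowest pot1b Zeocin library stayed above every WT library.

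EDA36, of the pyridoxal phosphate-dependent transferases, had 9.97, 6.99 and 8.97 CPM in the pot1b Zeocin libraries and 3.13, 5.46 and 4.47 CPM in the WT Zeocin libraries, with 5.09, 3.42 and 4.02 CPM in pot1b mock and 2.29, 2.27 and 1.57 CPM in WT mock. It rose in pot1b (log2 fold change 0.97, SE 0.23, edgeR adjusted p = 0.0085), and the call was lost without pot1b Zeocin replicate 1 or pot1b mock replicate 2, with an adjusted p of up to 0.075 without pot1b Zeocin replicate 1. It rose in WT too (log2 fold change 1.08, SE 0.28, edgeR adjusted p = 0.018), and the call was lost without WT Zeocin replicate 2 or WT mock replicate 3, with an adjusted p of up to 0.13 without WT mock replicate 3. The gene is read at low levels with a wide spread. AT5G16010, annotated as a steroid 4-dehydrogenase family protein, fell in WT (log2 fold change -0.47, SE 0.09, edgeR adjusted p = 0.0016), and its libraries read 216, 192 and 219 CPM in pot1b Zeocin against 109, 80.6 and 85 CPM in WT Zeocin, and 265, 233 and 239.5 CPM in pot1b mock against 131, 117 and 118 CPM in WT mock. In pot1b AT5G16010 had a log2 fold change of -0.29, SE 0.09, edgeR adjusted p = 0.05 after rounding, just short of a call. In each genotype all 3 Zeocin libraries lay below all 3 mock libraries, and the gene is read well in every library.

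SS3 and AT1G74010 are neighbours on chromosome 1. SS3 is named for strictosidine synthase, an enzyme of alkaloid synthesis in other plants, and AT1G74010 is annotated as a calcium-dependent phosphotriesterase. SS3 had 6.65, 9.96 and 7.87 CPM in pot1b Zeocin against 2.09, 3.01 and 3.42 CPM in WT Zeocin, and 11.4, 11.5 and 14.4 CPM in pot1b mock against 3.15, 3.28 and 4.16 CPM in WT mock. AT1G74010 had 16.3, 19.1 and 19.4 CPM in the pot1b Zeocin libraries and 7.14, 11.6 and 9.87 CPM in the WT Zeocin libraries, with 28.8, 27.9 and 26 CPM in pot1b mock and 10.5, 12.4 and 10.1 CPM in WT mock. Both fell with Zeocin in pot1b, SS3 with log2 fold change -0.68, SE 0.19, edgeR adjusted p = 0.03 and AT1G74010 with log2 fold change -0.66, SE 0.14, edgeR adjusted p = 0.0044. For SS3 the call was lost without pot1b Zeocin replicate 1 or 3 or pot1b mock replicate 2 or 3, with an adjusted p of up to 0.19 without pot1b Zeocin replicate 1. In WT neither was called.

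Other metabolic genes showed no called Zeocin response. The ceramidase gene AT2G38010, for an enzyme that cleaves ceramides of membranes, had 23.1, 25.6 and 23.4 CPM in pot1b Zeocin against 5.57, 7.92 and 8.56 CPM in WT Zeocin, and 22.8, 22.5 and 27 CPM in pot1b mock against 8.68, 10.6 and 7.42 CPM in WT mock. BGLU40, a beta-glucosidase gene, had 20.4, 19.5 and 24.2 CPM in pot1b Zeocin and 5.22, 7.92 and 6.84 CPM in WT Zeocin. Under mock BGLU40 had 23.4, 20.1 and 24.8 CPM in pot1b and 8.39, 9.34 and 9.45 CPM in WT. In both, a wide gap separates the lowest pot1b library from the highest WT library. For AT2G38010 the overlapping gene VCL1 had 6214 counts in all against 1225 for AT2G38010 itself, so that its level is uncertain. CYP79F1, which opens the synthesis of aliphatic glucosinolates from methionine, had 7.31, 6.78 and 6.41 CPM in pot1b Zeocin against 2.78, 3.42 and 2.24 CPM in WT Zeocin, and 5.66, 5.57 and 2.01 CPM in pot1b mock against 1.81, 1.52 and 1.01 CPM in WT mock. GAD4, a glutamate decarboxylase that makes the signal molecule GABA, had 12, 11.9 and 13.7 CPM in pot1b Zeocin and 6.27, 3.96 and 5.4 CPM in WT Zeocin. Under mock GAD4 had 16.1, 14.7 and 16.9 CPM in pot1b and 4.96, 4.54 and 5.29 CPM in WT. For CYP79F1 the lowest pot1b mock library lies close to the highest WT mock library, and the other groups are well apart. The rest were the starch-degrading chloroplast beta-amylase gene CT-BMY (BAM3), the purple acid phosphatase gene PAP18, the hydrolase gene AT5G41900, the acyltransferase genes AT5G12420 and AT5G47980 and the lycopene cyclase-type gene AT2G32640, with ratios of 1.83 to 2.35.

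Of the 6 transport genes, 1 fell with Zeocin in pot1b and 0 were called in WT by edgeR, DESeq2 or limma-voom (2 at an unadjusted p under 0.05). GTR1, which carries glucosinolates and was also described as a jasmonate transporter, had 43.9, 46 and 45.2 CPM in pot1b Zeocin against 26.8, 22.7 and 20.8 CPM in WT Zeocin, and 57, 58.6 and 53.3 CPM in pot1b mock against 27.4, 22.2 and 28.5 CPM in WT mock. It fell in pot1b (log2 fold change -0.38, SE 0.10, edgeR adjusted p = 0.021), and the call was lost without pot1b Zeocin replicate 1, 2 or 3 or pot1b mock replicate 1 or 2, with an adjusted p of up to 0.098 without pot1b mock replicate 2. The WT value of GTR1 was -0.23, SE 0.11, edgeR adjusted p = 0.27, in the same direction but not called. FUR1 (ENT3), a nucleoside transporter known from resistance to fluorouridine, had 96.7, 93.2 and 105 CPM in the pot1b Zeocin libraries and 31.7, 37.4 and 39.6 CPM in the WT Zeocin libraries, with 89, 85.9 and 93.3 CPM in pot1b mock and 40.7, 38.9 and 44.3 CPM in WT mock. SHB1, an EXS-domain protein known from blue light responses and seed size, the proline transporter gene PROT2 and the amino acid transporter gene LHT7 had ratios of 1.84 to 2.68. The mutant libraries lie above WT throughout, as chosen.

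NRT2:1, the main high-affinity nitrate transporter of roots, had 14.1, 13.6 and 12.6 CPM in pot1b Zeocin against 8.18, 5.74 and 5.26 CPM in WT Zeocin, and 14.3, 14.7 and 12.4 CPM in pot1b mock against 6.58, 8.08 and 5.74 CPM in WT mock. It is one of 9 root markers, of which 8 were tested. Of these, 3 were higher and 1 lower in pot1b with Zeocin, and 3 were higher and 0 lower under mock. The summed level of the 9 spanned 1618 to 1789 CPM in pot1b Zeocin, 979 to 1069 CPM in WT Zeocin, 1656 to 1774 CPM in pot1b mock and 1004 to 1061 CPM in WT mock, most of it from PYK10, a root beta-glucosidase gene, and pot1b and WT do not overlap. None of the 9 was at 0 in all libraries. SHR and SCR, which define the ground tissue of the root, were not called higher, and SCR was lower in pot1b with Zeocin (log2 fold change -0.69, SE 0.17, edgeR adjusted p = 0.012). The leaf mesophyll markers summed to 24405 to 25277 CPM in pot1b Zeocin, 20467 to 23500.5 CPM in WT Zeocin, 25921 to 28135 CPM in pot1b mock and 21146 to 22146 CPM in WT mock. Of these 5 markers, 1 was higher in pot1b with Zeocin and 3 under mock, 0 were lower in either by edgeR, DESeq2 or limma-voom (0 at an unadjusted p under 0.05), and in both treatments the sums of pot1b lie above those of WT without overlap. The 2 root cap markers passed the filter in no case, like the 4 of seed storage, and their sums were at most 2.61 and 3.68 CPM in a library. Of guard cell markers 0 of 3 and of vascular markers 0 of 5 were called between genotypes with Zeocin by edgeR, DESeq2 or limma-voom (1 of each list lower at an unadjusted p under 0.05), and under mock 1 guard cell marker was lower in pot1b by edgeR. The part of cell makeup in the levels of the 82 genes was not tested.

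Cell wall, lipase and lipid-transfer genes numbered 13 and held the most Zeocin calls, 3 that rose and 6 that fell in pot1b, with 0 in WT by edgeR, DESeq2 or limma-voom (3 higher and 1 lower at an unadjusted p under 0.05). AT4G12490, a lipid-transfer-type protein gene next to EARLI1 and AZI1, had 13.8, 15.9 and 16.3 CPM in pot1b Zeocin against 7.83, 6.15 and 9.48 CPM in WT Zeocin, and 37.3, 38.6 and 42.5 CPM in pot1b mock against 9.25, 10.1 and 8.77 CPM in WT mock. It fell with Zeocin in pot1b (log2 fold change -1.43, SE 0.13, edgeR adjusted p = 5.3e-08), the lowest adjusted p of the 82, while in WT it had -0.29, SE 0.16, edgeR adjusted p = 0.35. The difference between the 2 responses was -1.13 (SE 0.21), with no test. The mock libraries of pot1b stand far above all others, and the pot1b Zeocin libraries lie lower but still above every WT library.

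AT4G22610, of the same protein type, moved the other way. It had 10.3, 10.2 and 13.4 CPM in pot1b Zeocin and 3.66, 4.51 and 4.34 CPM in WT Zeocin. Under mock AT4G22610 had 4.16, 4.67 and 6.2 CPM in pot1b and 2.19, 2.78 and 2.47 CPM in WT. It rose with Zeocin in pot1b (log2 fold change 1.13, SE 0.20, edgeR adjusted p = 0.00039), and its WT value was 0.75, SE 0.24, edgeR adjusted p = 0.078. All 3 Zeocin libraries lie above the mock libraries in each genotype, although only the change in pot1b was called, and a difference between the genotypes was not tested.

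Of the AZI1/EARLI1 type, 8 genes were listed and 5 tested, of which 3 were higher in pot1b with Zeocin and 5 under mock. EARLI1 averaged 237 ± 28.3 CPM in pot1b Zeocin against 192 ± 16.8 CPM in WT Zeocin, and 506 ± 41.3 CPM in pot1b mock against 234 ± 15.8 CPM in WT mock (SD, n = 3). AZI1, needed for systemic immunity, averaged 179 ± 24.9 CPM in pot1b Zeocin against 215 ± 19 CPM in WT Zeocin, and 304 ± 38 CPM in pot1b mock against 220.2 ± 21.1 CPM in WT mock (SD, n = 3), and was called under mock. The member AT4G12490 counts among the 5, and AT4G12495, which overlaps it, had log2 fold changes of 0.93 with Zeocin and 2.23 under mock on 563 counts against 1416, so that the 2 cannot be told apart if strand was not used in counting.

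Proteins that modify pectin or hold its enzymes in check were represented by 3 genes of the invertase/pectin methylesterase inhibitor superfamily. AT2G47550 had 27.9, 24.2 and 30.9 CPM in pot1b Zeocin against 13.2, 11.3 and 13.4 CPM in WT Zeocin, and 38.5, 46.6 and 46.2 CPM in pot1b mock against 13.7, 13.4 and 13.4 CPM in WT mock, and fell with Zeocin in pot1b (log2 fold change -0.71, SE 0.11, edgeR adjusted p = 0.00015). AT3G47380 had 25.4, 23.9 and 29.1 CPM in the pot1b Zeocin libraries and 15.1, 12.7 and 13.4 CPM in the WT Zeocin libraries, with 34.7, 38.3 and 34.5 CPM in pot1b mock and 13.4, 13.9 and 12.7 CPM in WT mock, and fell too (log2 fold change -0.51, SE 0.11, edgeR adjusted p = 0.0034). AT5G62360 had 156, 135 and 131 CPM in pot1b Zeocin against 49.96, 29.8 and 34.8 CPM in WT Zeocin, and 95.4, 93.8 and 73.2 CPM in pot1b mock against 43.8, 36.9 and 37 CPM in WT mock, and rose (log2 fold change 0.63, SE 0.15, edgeR adjusted p = 0.021; the call was lost without pot1b Zeocin replicate 1 or 2 or pot1b mock replicate 3, with an adjusted p of up to 0.076 without pot1b Zeocin replicate 1). Genes of 1 superfamily thus moved both ways with Zeocin in pot1b, and none of the 3 was called in WT.

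AT1G32860, a glycosyl hydrolase gene, rose with Zeocin in pot1b (log2 fold change 0.74, SE 0.16, edgeR adjusted p = 0.0042), with 17, 21 and 19.2 CPM in pot1b Zeocin against 6.96, 6.56 and 7.5 CPM in WT Zeocin, and 9.94, 11.3 and 11.6 CPM in pot1b mock against 5.43, 2.78 and 5.29 CPM in WT mock. Its WT value was 0.49, SE 0.20, edgeR adjusted p = 0.17, in the same direction but not called. Smaller changes were seen in 3 more genes of the cell surface. The lipase-type gene AT5G55050 fell (log2 fold change -0.34, SE 0.09, edgeR adjusted p = 0.015), and the call was lost without pot1b Zeocin replicate 2 or 3 or pot1b mock replicate 1, 2 or 3, with an adjusted p of up to 0.08 without pot1b Zeocin replicate 2. The chitinase gene EP3 fell (log2 fold change -0.27, SE 0.08, edgeR adjusted p = 0.032), and the call was lost without pot1b Zeocin replicate 1, 2 or 3 or pot1b mock replicate 1, 2 or 3, with an adjusted p of up to 0.13 without pot1b Zeocin replicate 2. Arabinogalactan proteins are heavily glycosylated proteins of the cell surface. AGP15, one of them, had 116, 116 and 125 CPM in pot1b Zeocin and 49.1, 75.2 and 70.9 CPM in WT Zeocin. Under mock AGP15 had 142, 162 and 152 CPM in pot1b and 79.8, 84.6 and 80.1 CPM in WT. It fell with Zeocin in pot1b (log2 fold change -0.41, SE 0.12, edgeR adjusted p = 0.049), and the call was lost without any one library other than WT Zeocin replicate 1 or 2, with an adjusted p of up to 0.19 without pot1b mock replicate 2. The WT value of AGP15 was close to this, -0.36, SE 0.12, edgeR adjusted p = 0.11, and was not called. AT5G55180, a family 17 glycosyl hydrolase gene, the lipase genes GLIP5 and AT2G19060, and the CASP-like membrane protein gene AT4G15630 were called in neither genotype and had ratios of 1.85 to 2.36.

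**Figure D3:**
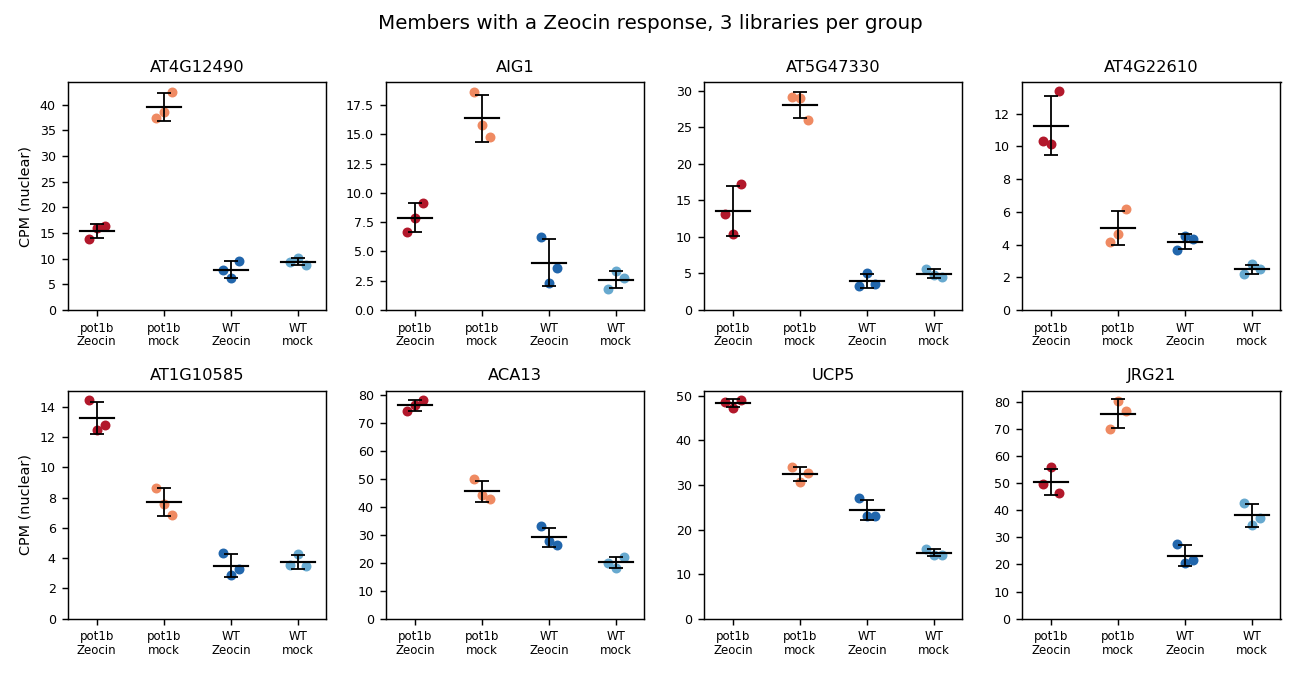
Levels in CPM of nuclear counts (y axis, linear, from 0) of 8 genes with a called Zeocin response in each of the 4 groups (x axis); points are libraries, the long bar is the mean and the error bars are 1 SD (n = 3). AT4G12490, AIG1 and AT5G47330 are lower with Zeocin than under mock in pot1b and were not called in WT, AT4G22610 and AT1G10585 are higher with Zeocin in pot1b, and ACA13, UCP5 and JRG21 move the same way in both genotypes.

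Small stress-type proteins numbered 8, of which 2 rose with Zeocin in pot1b and 0 were called in WT by edgeR, DESeq2 or limma-voom (1 higher and 1 lower at an unadjusted p under 0.05). Of these, 4 belong to the cysteine-rich transmembrane (CYSTM) proteins, short membrane proteins known from stress tolerance. AT1G56060, whose window with 2 W-boxes is shown above, had 13.1, 6.57 and 9.7 CPM in pot1b Zeocin against 4.53, 4.24 and 4.21 CPM in WT Zeocin, and 6.94, 8.45 and 7.2 CPM in pot1b mock against 3.05, 2.52 and 2.25 CPM in WT mock. AT2G32190, AT2G32200 and AT2G32210 lie side by side on 1 strand of chromosome 2 with no gene between them. AT2G32190 had 17, 12.9 and 18.9 CPM in the pot1b Zeocin libraries and 3.31, 7.1 and 7.5 CPM in the WT Zeocin libraries, with 17.5, 20.0 and 17.9 CPM in pot1b mock and 6.1, 7.32 and 7.2 CPM in WT mock. AT2G32200 had 6.15, 6.36 and 5.86 CPM in pot1b Zeocin against 1.39, 2.05 and 3.03 CPM in WT Zeocin, and 5.78, 4.31 and 4.86 CPM in pot1b mock against 1.34, 1.77 and 2.7 CPM in WT mock. AT2G32210 had 13, 14.2 and 8.97 CPM in the pot1b Zeocin libraries and 3.13, 5.88 and 5.13 CPM in the WT Zeocin libraries, with 11.3, 13.3 and 12.1 CPM in pot1b mock and 4.67, 4.54 and 4.5 CPM in WT mock. All 4 were higher in pot1b by a similar ratio, between 2.14 and 2.59 with Zeocin and between 2.25 and 2.58 under mock, and none had a called Zeocin response.

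The windows before the last 2 genes of the row are shown because they share a stretch of 18 bases, marked in capitals, that 2 of 19393 windows hold. The windows are chr2:13676139-13676388 and chr2:13677736-13677985, both on the + strand.
AT2G32200: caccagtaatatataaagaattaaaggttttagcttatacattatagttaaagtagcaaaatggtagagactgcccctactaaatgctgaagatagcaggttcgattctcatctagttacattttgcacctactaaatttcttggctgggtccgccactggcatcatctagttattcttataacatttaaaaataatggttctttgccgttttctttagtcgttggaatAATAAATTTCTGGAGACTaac
AT2G32210: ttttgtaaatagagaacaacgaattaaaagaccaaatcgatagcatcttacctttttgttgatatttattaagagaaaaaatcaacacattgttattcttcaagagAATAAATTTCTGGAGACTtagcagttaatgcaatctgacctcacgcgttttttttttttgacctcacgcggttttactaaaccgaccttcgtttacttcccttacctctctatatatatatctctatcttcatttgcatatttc

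The window of AT2G32190 shares at most 9 bases with either, a length that other windows hold as well. The stretch starts 21 bases before the annotated start of AT2G32200 and 144 before that of AT2G32210. It is given as a description of these windows, with no statement on its use.

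HVA22D, of a family induced by abscisic acid and drought, had 64.8, 58.9 and 69 CPM in pot1b Zeocin against 23.8, 24.9 and 28.2 CPM in WT Zeocin, and 41.3, 48.5 and 49.4 CPM in pot1b mock against 26.1, 23.2 and 21.8 CPM in WT mock, and rose with Zeocin in pot1b (log2 fold change 0.42, SE 0.10, edgeR adjusted p = 0.013; the call was lost without pot1b Zeocin replicate 1 or 3 or pot1b mock replicate 1, with an adjusted p of up to 0.13 without pot1b mock replicate 1). PP2-A5, a phloem protein 2-type lectin gene, had 123, 132 and 123 CPM in the pot1b Zeocin libraries and 53.3, 54.8 and 49 CPM in the WT Zeocin libraries, with 100.1, 104 and 99.2 CPM in pot1b mock and 56.2, 55.3 and 51.3 CPM in WT mock, and rose by less (log2 fold change 0.26, SE 0.07, edgeR adjusted p = 0.036; the call was lost without any one library other than WT Zeocin replicate 1, 2 or 3 or WT mock replicate 2 or 3, with an adjusted p of up to 0.16 without pot1b Zeocin replicate 2). RD20, a caleosin of lipid droplets that drought induces, had 2.83, 4.45 and 4.76 CPM in pot1b Zeocin against 1.22, 1.37 and 1.05 CPM in WT Zeocin, and 5.2, 4.13 and 4.52 CPM in pot1b mock against 2.96, 1.52 and 2.36 CPM in WT mock. The A/B barrel gene AT5G22580 had ratios of 2.65 with Zeocin and 2.39 under mock. RD20 and AT5G22580 had no called Zeocin response.

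The 8 uncharacterised genes and the 4 non-coding RNA genes held 0 Zeocin calls in either genotype by edgeR, DESeq2 or limma-voom (1 in each genotype at an unadjusted p under 0.05). AT3G29633 stood apart from all others. It had 29, 25 and 19 counts in pot1b Zeocin, against 0, 0 and 1 in WT Zeocin, and 23, 24 and 22 counts in pot1b mock, against 0, 0 and 0 in WT mock. With Zeocin the ratio of its CPM, from the summed counts of each group and without the added 0.5 CPM, was 93.1 (exact 95% interval 16.2 to 3730, counting error only). Under mock it was at least 26.6-fold higher in pot1b, against a floor of 3 counts over the WT group. These counts also chose the gene, so both values and the interval describe it and are no test. Its 8 nearest counted neighbours held at most 11 counts in any library.

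AT5G26270, also uncharacterised, had 13.3, 15.5 and 16.3 CPM in pot1b Zeocin against 2.78, 5.06 and 5.13 CPM in WT Zeocin, and 14.7, 14.2 and 15.1 CPM in pot1b mock against 3.72, 6.06 and 4.84 CPM in WT mock. AT1G47130 had 3.16, 5.72 and 2.75 CPM in pot1b Zeocin and 1.04, 0.96 and 0.4 CPM in WT Zeocin. Under mock AT1G47130 had 4.74, 3.24 and 2.85 CPM in pot1b and 0.86, 1.77 and 0.56 CPM in WT. Both lie well above WT in each pot1b library, AT1G47130 with a wide spread at low counts. AT1G58420, AT1G11210, AT1G15010, AT1G62840 and AT1G36622 had ratios of 1.88 to 2.5. Among the non-coding RNA genes, AT2G01422 had 38.4, 39.4 and 43.4 CPM in pot1b Zeocin against 8.53, 13 and 18.4 CPM in WT Zeocin, and 39.8, 47.1 and 54.6 CPM in pot1b mock against 12.5, 13.1 and 15 CPM in WT mock. AT1G08973, AT3G07835 and AT4G06665 each overlap a protein-coding gene and had ratios of 1.8 to 2.37.

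**Figure D4:**
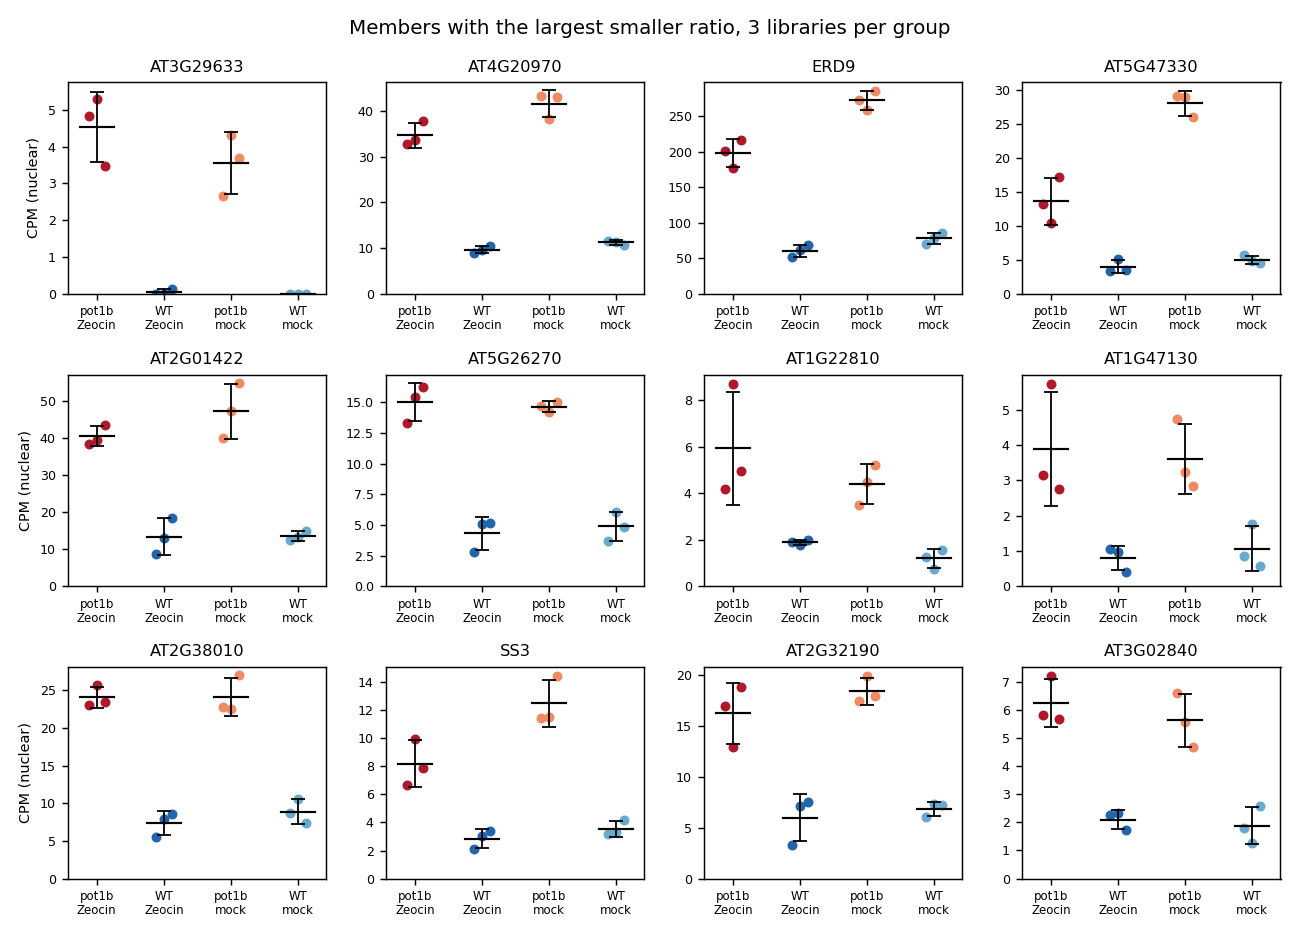
Levels in CPM of nuclear counts (y axis, linear, from 0) of the 12 genes with the largest smaller ratio, in each of the 4 groups (x axis); points are libraries, the long bar is the mean and the error bars are 1 SD (n = 3). In every panel the pot1b points lie above the WT points within a treatment, as the rule requires, and AT3G29633 is at or near 0 in all 6 WT libraries.

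Genes that overlap another counted gene numbered 27 of the 82, beside 10082 of all 32548 nuclear genes. Of the 27, 9 had a partner with more counts: AT1G10585, CNGC7, AT1G62840, AT1G08973, AT2G32640, AT2G38010, SRS6, AT3G07835 and AT4G06665. The strand setting of the counting is not given in the sources used here, so that the levels of these genes are uncertain. In 3 overlapping pairs on opposite strands both genes are among the 82. SRS6 had 59.0% to 81.7% of the counts of EP3 over the 12 libraries, AT4G06665 had 26.2% to 35.4% of those of CT-BMY, and AT3G07835 had 9.09% to 28.5% of those of GTR1. A partner outside the 82 also moved for AT1G22810 (AT1G05767, log2 fold change between genotypes 1.62 with Zeocin and 1.98 under mock) and for AT3G02840 (AT3G01165, 2.05 and 1.95). Which gene of such a pair the reads came from was not tested.

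The 82 genes lie on all 5 chromosomes: 23, 12, 19, 13 and 15 on chromosomes 1 to 5, which are 28.0%, 14.6%, 23.2%, 15.9% and 18.3% of them, against 26.5%, 15.4%, 19.7%, 15.3% and 23.1% of the tested genes. POT1B lies on chromosome 5, where the nearest of the 82 in gene order, AT5G01380 and AGP15, are 616 and 618 genes away. The CYSTM row and the 3 genes AT5G55050, MAPKKK15 and AT5G55180 were the only sets of 3 within 25 genes. No more than 7.73% of the 50-base words of any of the 82 occur elsewhere in the genome, the highest being NRT2:1, followed by AT4G12490 with 6.78%.

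Other stress pathways were read from gene lists with the same comparison of genotypes, and all of these counts share their libraries with the choice of the 82. Of 8 tested cold genes, 6 were higher in pot1b with Zeocin and 5 under mock. KIN1, a gene of cold and drought, averaged 29.4 ± 3.85 CPM in pot1b Zeocin against 10.3 ± 2.11 CPM in WT Zeocin, and 19.9 ± 2.08 CPM in pot1b mock against 13.3 ± 1.51 CPM in WT mock (SD, n = 3). The set-aside COR15A counts among them, and CBF2, of the factors that switch such genes on, was not called. Of 12 tested ROS-responsive genes, 5 were higher with Zeocin and 5 under mock. Of 12 tested ROS scavenging genes, 1 was higher and 1 lower with Zeocin, and 2 were higher and 3 lower under mock.

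Of 10 tested salicylate and immunity genes, 2 were higher with Zeocin and 6 under mock. PBS3, of salicylate synthesis, averaged 1.32 ± 0.59 CPM in pot1b Zeocin against 1.03 ± 0.38 CPM in WT Zeocin, and 6.9 ± 0.84 CPM in pot1b mock against 0.54 ± 0.11 CPM in WT mock (SD, n = 3), and was called under mock. Heat shock proteins are chaperones that keep other proteins folded. Of 6 tested heat shock genes, 0 were called with Zeocin by edgeR, DESeq2 or limma-voom (2 higher at an unadjusted p under 0.05) and 5 were higher under mock by edgeR. HSP70 averaged 33.8 ± 0.7 CPM in pot1b Zeocin against 31.9 ± 7.28 CPM in WT Zeocin, and 87 ± 3.17 CPM in pot1b mock against 33.6 ± 2.05 CPM in WT mock (SD, n = 3). HSP70 passes the minimum ratio of the rule under mock alone. Of 12 tested iron genes, 3 were higher with Zeocin, and 5 were higher and 1 lower under mock, the set-aside IRT1 and FRO2 among the higher ones. Of 8 tested phosphate starvation genes, 1 was higher with Zeocin, and 4 were higher and 1 lower under mock. The gene higher with Zeocin is the set-aside RNS1, whose values met the rule and which is also among the 4 under mock.

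Of the 4 clade 1 glutamate receptor genes, 2 were higher with Zeocin and 1 under mock, the member ATGLR1.2 among them. Of 17 DNA damage response genes, 6 were higher in pot1b with Zeocin and 1 under mock, and none of the 82 is on that list. Of 10 tested senescence and cell death genes, 4 were lower with Zeocin and 2 under mock. Lists in which genes were higher thus stand beside 1, senescence and cell death, in which all called genes were lower. The ROS scavenging list went both ways, and the iron and phosphate starvation lists each held 1 lower gene under mock. The numbers over all tested genes were 6.55% higher and 4.51% lower with Zeocin, and 7.25% higher and 5.83% lower under mock.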

How the data were processed

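Total RNA of 12 seedling libraries was sequenced after ribosomal RNA depletion with a stranded kit, per the labels' protocols. Per the submitters' processing notes, the authors used Trim Galore, HISAT2, TAIR10, featureCounts and limma; the strand setting of the counting is not given in the sources used here. The deposited values are raw counts per gene, whole numbers for 34262 features. Names, neighbours, overlaps and promoter windows were looked up by locus tag in RefSeq TAIR10.1.

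The 82 genes, the 10 role groups, the 12 gene lists and the 7 marker lists were chosen with earlier results of these data known. CPM were counts per 1000000 counts of chromosomes 1 to 5. All features were tested together with edgeR 4.0.16 in R 4.3.3: filterByExpr with a minimum count of 10 kept 19596 genes, libraries were scaled by TMM, and 1 model of 4 groups was fitted to all 12 by the quasi-likelihood F test with robust settings (dispersion 0.0121, a coefficient of variation of 11%). Adjusted p is the Benjamini-Hochberg value over 19596 genes, and a gene was called under 0.05. Log2 fold changes follow the TMM scaling, which moved a library by -0.061 to 0.083 (log2) against nuclear CPM. Intervals and floors (3 counts) cover counting error only.

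On simulated counts for Zeocin against mock in WT, 87.8% of 2-fold and 100% of 4-fold rises were called. Of the simulated falls, 86% of 2-fold and 96% of 4-fold ones were called, with 10 false calls among 19353 genes. Changes under 2-fold, the size of most Zeocin changes called here, were not simulated, so these shares do not cover them. Named genes were the 12 with the largest smaller ratio, those on a list, the 8 largest called Zeocin changes, neighbours, genes at the limit and genes of known role. Alternatives were DESeq2 1.42.0, limma-voom 3.58.1, other scalings, no filter, 6 libraries, a replicate block, left-out libraries and other settings of the rule.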

Additional observations from a re-analysis of the deposited data

How the results depend on the processing

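The rule found 216 genes with a minimum ratio of 1.5 and 40 with 2, in place of 82 with 1.8. Other pseudocounts, a level minimum of 1 CPM, TMM-scaled CPM, overlapping groups and left-out libraries gave 66 to 100 genes. With only the 6 libraries compared, the members called for Zeocin in WT were 3, in place of 10, and all genes called were 709 for Zeocin in WT, 3981 for pot1b under mock and 928 for pot1b with Zeocin, in place of 1174, 2562 and 2168. The cause was not tested. Leaving out 1 library at a time gave 4 to 10 members for Zeocin in WT and 14 to 28 in pot1b, and over all genes 707 to 1498 for Zeocin in WT, 919 to 2033 for Zeocin in pot1b, 1595 to 3736 for pot1b under mock and 1239 to 2304 for pot1b with Zeocin. The highest counts over all genes in all 4 comparisons, and the 28 members, came without WT Zeocin replicate 1, which had the highest TMM factor and the lowest chloroplast share; the cause was not tested. Without both pot1b replicate 3 libraries, an alternative added after seeing the data, the members called for Zeocin in pot1b were 13, and all genes 742 for Zeocin in pot1b and 1294 for pot1b with Zeocin. The counts over all genes for pot1b against WT under these settings were also added after seeing the data. DESeq2 called 7 members in WT and 20 in pot1b. No named change reversed its direction under any alternative run. Of 34 calls, 34 held with limma-voom, 33 with RLE scaling, 33 with nuclear genes only, 31 without the filter, 27 with DESeq2 and 27 with the 6 libraries compared.

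Same-numbered libraries deviated from their group means with correlations of -0.022 to 0.416, and 9 of 12 libraries correlated best with their own number, a hint from the data and not from the design. With the replicate block, 11 members were called for Zeocin in WT and 28 in pot1b, and over all genes 1691 and 1701, with 3273 for pot1b under mock and 2862 with Zeocin. It ended none of the 34 calls. A gene with 3 counts in a library stands at 0.286 to 0.757 CPM, so that members at a few CPM, such as AT1G47130 and AT1G22810, are read with wide counting error.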
